A study of Homo sapiens with 12 samples.

Results

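YAP1, WWTR1, TEAD1, TEAD4, LATS2, AMOTL2, CTGF, CYR61 and ANKRD1 are 9 genes of the YAP/TEAD pathway, its inhibitors and its targets. They were chosen by gene name out of 34595 genes with a value, and each has 1 row in the deposited table. To evaluate expression that goes with the stem cell marker CD133 (prominin-1, encoded by PROM1), the study sorted 3 established gastric cancer cell lines, KATO-III, SNU-216 and SNU-601, by fluorescence after staining with an antibody against CD133. All lines were grown in RPMI1640 medium with calf serum, and the labels name no other treatment and no genetic change. The brightest 10% of each line were collected as CD133+ cells and the dimmest 6% as CD133- cells, so that cells between both gates were not measured. Each of the 6 sorted populations has 2 Illumina HT-12 v3 BeadChip arrays, 12 in all, and the design text writes SNU201 where the labels of the arrays have SNU-216.

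PROM1 checked the sort. It was higher in CD133+ cells compared with CD133- cells in each line, by 1.10 on the log2 scale in KATO-III, 2.02 in SNU-216 and 1.86 in SNU-601, with adjusted p-values from limma of 5.65e-06 or lower. The 9 epithelial marker rows, among them CDH1, EPCAM and KRT19, lay above the floor described below on all 12 arrays. The blood cell markers PTPRC and CD3D lay above it on no array. Of 12 mesenchymal markers, ZEB1, COL3A1, DCN and PDGFRB lay above it on none, and VIM did on 12, ACTA2 on 11, COL1A1 on 7, LUM on 6 and TWIST1 on 5. Of the other blood markers, LYZ, which gastric epithelium can also express, lay above it on all arrays of KATO-III and SNU-601, and CD14 had intensities of 835 to 1242 in KATO-III. Arrays of the same population correlated at r of 0.993 to 0.995 across genes.

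YAP1 and its paralogue TAZ, encoded by WWTR1, are coactivators without a DNA-binding domain, and they act mainly through the TEAD transcription factors. The kinases LATS1 and LATS2 phosphorylate both and keep them in the cytoplasm, and angiomotin family proteins such as AMOTL2 bind and retain them at cell junctions. CTGF, CYR61 and ANKRD1 are the targets most used as a readout of YAP/TAZ activity, while LATS2 and AMOTL2 are targets that feed back on it. The pathway is known for its part in the growth of the gastric epithelium and of gastric cancer. An mRNA level shows neither the phosphorylation nor the location of YAP or TAZ.

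The promoter sequences of CTGF, ANKRD1 and YAP1 are shown because these genes carry the differences between fractions and lines described below and hold a match to the TEAD motif. They come from RefSeq on GRCh38.p14, where CTGF is named CCN2 and CYR61 is CCN1, and a window runs from 250 bases before to 50 bases after a gene's start. RefSeq windows were matched for 6 of the 9 genes, and TEAD1, TEAD4 and CYR61 had none in the table. The letters CATTCC were searched on both strands, so that the capitals below read GGAATG, the same motif on the other strand. The stretch of CTGF lies at chr6:131951442-131951561 on the minus strand, that of ANKRD1 at chr10:90921190-90921327 on the minus strand and that of YAP1 at chr11:102110265-102110310 on the plus strand, each upstream of its gene.

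CTGF: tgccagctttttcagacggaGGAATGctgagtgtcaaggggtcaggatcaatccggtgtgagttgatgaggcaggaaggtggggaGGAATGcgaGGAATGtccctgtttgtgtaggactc
ANKRD1: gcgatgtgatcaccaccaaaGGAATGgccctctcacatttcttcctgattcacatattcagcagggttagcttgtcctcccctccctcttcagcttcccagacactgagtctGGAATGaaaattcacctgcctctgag
YAP1: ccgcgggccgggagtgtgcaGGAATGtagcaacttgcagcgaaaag

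CTGF held 3 matches, of which the latter 2 stand 3 bases apart, ANKRD1 held 2 and YAP1 held 1. LATS2 held 1 match just after its start, AMOTL2 held 1 in 1 of its 2 windows, and neither window of WWTR1 held any. Of 35116 RefSeq windows of the same length, 14.0% held at least 1 match, 1.37% at least 2 and 0.128% at least 3. The AP-1 motif TGANTCA, searched with any base at N, was found only in the window of ANKRD1, between its TEAD matches and with T at N. Of all windows 7.71% held the motif with any base at N. The motifs do not overlap. A match is a description of these letters and not a measured site.

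**Figure D1:**
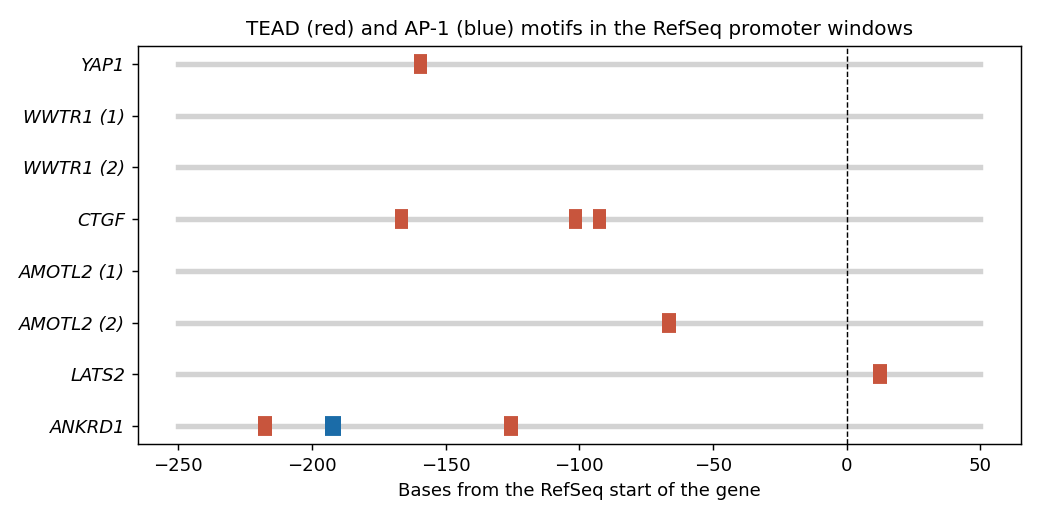
Matches to the TEAD motif (red) and the AP-1 motif (blue) in the 8 RefSeq promoter windows of 6 of the genes, by distance in bases from the gene's start (dashed line); grey bars are the windows. CTGF holds 3 TEAD matches and ANKRD1 holds 2 with an AP-1 match between them, whereas neither window of WWTR1 holds any.

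Values are quantile-normalized, background-subtracted intensities on a linear scale. Intensities below a floor of 32.7, which is the scatter of the background subtraction around 0, were set to the floor before log2 was taken, and values at the floor have no order. A gene was tested where 2 or more arrays exceeded the floor, which held for all 9 members: YAP1, TEAD4, CTGF, AMOTL2 and LATS2 on all 12 arrays, TEAD1 on 9, CYR61 on 8, ANKRD1 on 7 and WWTR1 on 4. Changes are log2 differences, CD133+ minus CD133-, with their standard error (SE) from limma, and adjusted p-values are Benjamini-Hochberg values over 20147 tested genes with a threshold of 0.05. The labels do not say whether the 2 arrays of a population come from separate sorts, so the p-values measure only the spread between these arrays, which may be technical. In sorted bulk cells, fewer cells that express a gene and less RNA per cell cannot be told apart. Each gene was read by its own probes, so intensities were compared between populations and not between genes. Whether the arrays of both fractions overlap is given as a description and not as a test. With 2 arrays per fraction they often separate by chance, and the share of all tested genes that do so was not counted.

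**Figure D2:**
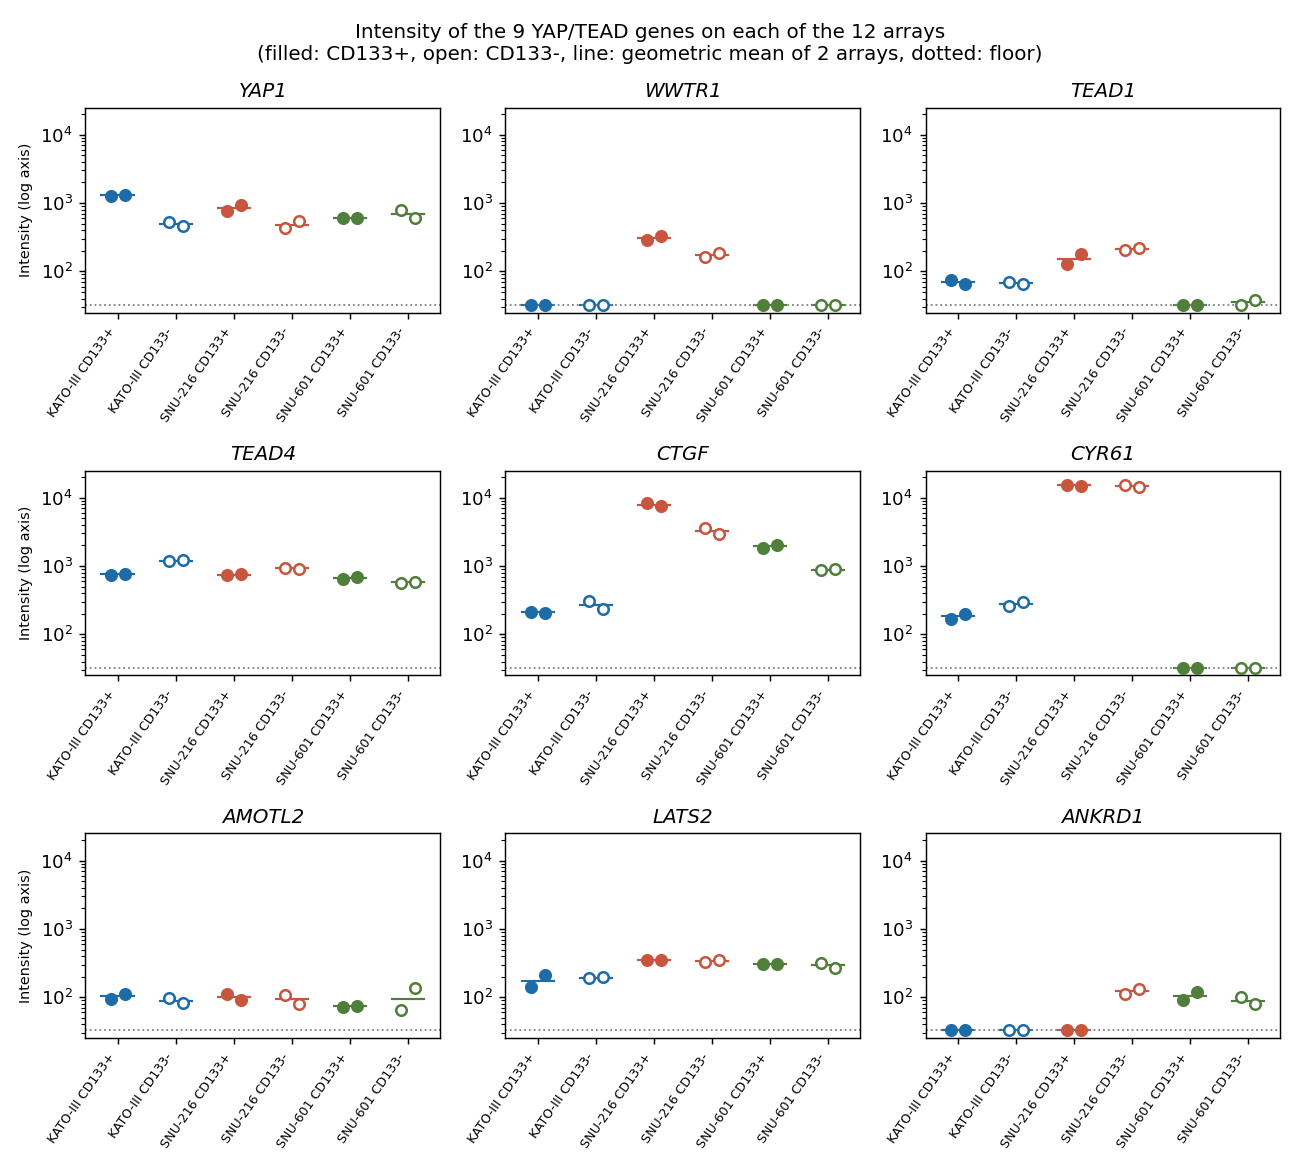
Intensity (log axis) of each of the 9 genes on the 12 arrays, by sorted population; filled points are CD133+ arrays, open points CD133- arrays, short lines geometric means of 2 arrays, and the dotted line the floor of 32.7, at which lower values are drawn. CYR61 in SNU-216 lies between 14266 and 15266 and in SNU-601 at the floor, and WWTR1 is above the floor in SNU-216 alone.

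YAP1 mRNA was higher in CD133+ cells of KATO-III and SNU-216 but not of SNU-601. YAP1 (chr11:102110447-102233424) had intensities of 1273 and 1311 on the CD133+ arrays of KATO-III against 532 and 465 on its CD133- arrays. In SNU-216 the values were 759 and 927 in CD133+ cells against 429.8 and 547 in CD133- cells. In SNU-601 they were 596 and 605 in CD133+ cells against 782 and 594.5 in CD133- cells. The fractions did not overlap in KATO-III or SNU-216, and in SNU-601 both CD133+ arrays lay between the CD133- arrays. YAP1 rose in CD133+ cells by 1.38 (SE 0.16, adjusted p = 0.00016) in KATO-III, which is 2.60-fold, and by 0.79 (SE 0.16, adjusted p = 0.0054) in SNU-216, which is 1.73-fold. In SNU-601 the difference was -0.18 (95% interval -0.54 to 0.18, adjusted p = 0.53). The SNU-216 call was lost without the second CD133+ array of that line, at 0.65 with an adjusted p of 0.0513.

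TAZ differed from YAP in where it was measurable at all. WWTR1 (chr3:149517235-149724788) had intensities of 289.6 and 327 in CD133+ cells of SNU-216 against 165 and 184 in its CD133- cells. On the 8 arrays of KATO-III and SNU-601 it lay between -32.6 and 4.15, below the floor, so that it has no change between fractions there. In SNU-216 the fractions did not overlap, and WWTR1 rose in CD133+ cells by 0.82 (SE 0.12, adjusted p = 0.00104), or 1.77-fold. SNU-216 was thus the line in which the mRNA of both coactivators was higher in CD133+ cells.

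Among the DNA-binding partners, TEAD4 changed in every line but not in the same direction, and TEAD1 in none. TEAD4 (chr12:2959397-3040676) had intensities of 743 and 771 in CD133+ cells of KATO-III against 1197 and 1207 in CD133- cells. In SNU-216 they were 730.1 and 752 against 939.5 and 909.5, and in SNU-601 they were 653 and 685 against 568 and 585. The fractions overlapped in no line, with CD133+ cells lower in KATO-III and SNU-216 and higher in SNU-601. TEAD4 fell by 0.67 on the log2 scale (SE 0.05, adjusted p = 1.6e-05) in KATO-III and fell by 0.32 (SE 0.05, adjusted p = 0.00165) in SNU-216, and it rose by 0.21 (SE 0.05, adjusted p = 0.0214) in SNU-601. Thus in KATO-III and SNU-216, the lines in which YAP1 was higher in CD133+ cells, TEAD4 was lower there. The SNU-601 call was lost without the second CD133+ array (adjusted p = 0.0951) or the first CD133- array (adjusted p = 0.087) of that line.

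TEAD1 (chr11:12674421-12944737), a close paralogue of TEAD4, was nearest to background in SNU-601. Its intensities were 75.1 and 66.4 in CD133+ cells of KATO-III against 70.4 and 66.2 in CD133- cells, and in SNU-216 they were 127 and 178 against 203 and 222. In SNU-601 they were 18.8 and 26.6 against 18.1 and 38.4, with 1 of the 4 arrays above the floor. The fractions of SNU-216 did not overlap, with CD133+ cells lower, and those of KATO-III did. The differences were 0.05 in KATO-III (95% interval -0.35 to 0.45) and -0.50 in SNU-216 (95% interval -0.90 to -0.09, adjusted p = 0.0677), and neither passed the threshold. The SNU-216 difference passed it with a floor of 100 (adjusted p = 0.0127) and without the second CD133+ array of the line, at -0.75 with an adjusted p of 0.0150.

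The feedback genes LATS2 and AMOTL2 did not pass the test between fractions in any line. LATS2 (chr13:20973036-21061586), the kinase that phosphorylates YAP and TAZ, had intensities of 139 and 215 in CD133+ cells of KATO-III against 191 and 198 in CD133- cells. In SNU-216 they were 353 and 352 against 325 and 349, and in SNU-601 they were 308 and 306 against 322.5 and 271. The fractions of KATO-III and SNU-601 overlapped, and those of SNU-216 did not, with CD133+ cells slightly higher. The differences were -0.17 (95% interval -0.57 to 0.24), 0.07 (95% interval -0.34 to 0.47) and 0.05 (95% interval -0.35 to 0.46) in KATO-III, SNU-216 and SNU-601. The KATO-III value depended on which CD133+ array was kept: without the second it was -0.48 (adjusted p = 0.0189), and without the first it was 0.14 (adjusted p = 0.414).

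AMOTL2 (chr3:134355345-134375417), which binds YAP at junctions, was low throughout, between 65.9 and 135 over the 12 arrays. Its intensities were 94.6 and 113 against 97.5 and 81.6 in KATO-III, 110.2 and 91.8 against 109.6 and 80.2 in SNU-216, and 73.3 and 75.1 against 65.9 and 135 in SNU-601, CD133+ first. The fractions overlapped in each line, and the arrays of SNU-601 CD133- cells lay furthest apart. The differences were 0.21 (95% interval -0.49 to 0.92) in KATO-III, 0.10 (95% interval -0.60 to 0.81) in SNU-216 and -0.35 (95% interval -1.05 to 0.36) in SNU-601. Each interval holds 0 and is wide.

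The target CTGF was higher in CD133+ cells of SNU-216 and SNU-601 and lower in those of KATO-III. CTGF (chr6:131948176-131951372) encodes connective tissue growth factor, a secreted matricellular protein. Its intensities in SNU-216 were 8275 and 7594 in CD133+ cells against 3589 and 2929.7 in CD133- cells, and in SNU-601 they were 1859 and 2049 against 878.5 and 899.9. In KATO-III they were 214 and 206 in CD133+ cells against 307.5 and 238 in CD133- cells. No fractions overlapped in any line. CTGF rose by 1.29 (SE 0.13, adjusted p = 0.000138), or 2.44-fold, in SNU-216 and by 1.13 (SE 0.13, adjusted p = 0.000866), or 2.20-fold, in SNU-601. In KATO-III it fell by 0.37 on the log2 scale (SE 0.13, adjusted p = 0.0496), a call at the edge of the threshold: without the first CD133- array of the line it was -0.18, with an adjusted p of 0.326, and the call was lost with 9 of the 12 arrays left out 1 at a time.

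CYR61, a matricellular relative of CTGF, fell with it in KATO-III, did not pass the test in SNU-216 and was not measurable in SNU-601. CYR61 (chr1:85580761-85583950) had intensities of 170.2 and 200.5 in CD133+ cells of KATO-III against 262 and 294 in CD133- cells. In SNU-216 they were 15266 and 15047 in CD133+ cells against 15128 and 14266 in CD133- cells, and in SNU-601 the 4 arrays lay between -17.6 and 1.78, below the floor. The fractions did not overlap in KATO-III, and in SNU-216 they did. CYR61 fell by 0.59 on the log2 scale (SE 0.09, adjusted p = 0.000784) in CD133+ cells of KATO-III. In SNU-216 the difference was 0.04 (95% interval -0.16 to 0.25). There CYR61 lay at percentiles 99.5 to 99.7 of its arrays, and the highest intensity of any gene was 23394. A rise as large as that of CTGF in the same line had no room to appear. CTGF and CYR61 were not compared there by a test, and these values cannot set them apart.

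ANKRD1, an ankyrin repeat protein of muscle and of stretched cells, fell in CD133+ cells of SNU-216, where CTGF rose, and did not pass the test in SNU-601, where CTGF rose too. ANKRD1 (chr10:90912096-90921087) had intensities of 23.0 and 7.69 in CD133+ cells of SNU-216, both below the floor, against 113 and 132 in CD133- cells. In SNU-601 they were 91.4 and 121 against 101 and 79.5, and in KATO-III they were 26.9 and 33.6 against -2.79 and 2.90. The fractions did not overlap in SNU-216 and overlapped in SNU-601, and in KATO-III 3 of the 4 values lie below the floor and have no order. ANKRD1 was at least 3.73-fold lower in CD133+ cells of SNU-216 (adjusted p = 9.0e-05). The difference was 0.23 in SNU-601 (95% interval -0.16 to 0.63). In KATO-III, where 1 of 4 arrays lay above the floor, it was 0.02, but 0.91 with a floor of 16 (adjusted p = 0.0249) and 0.38 with an offset of 100 in place of a floor (adjusted p = 0.0211).

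**Figure D3:**
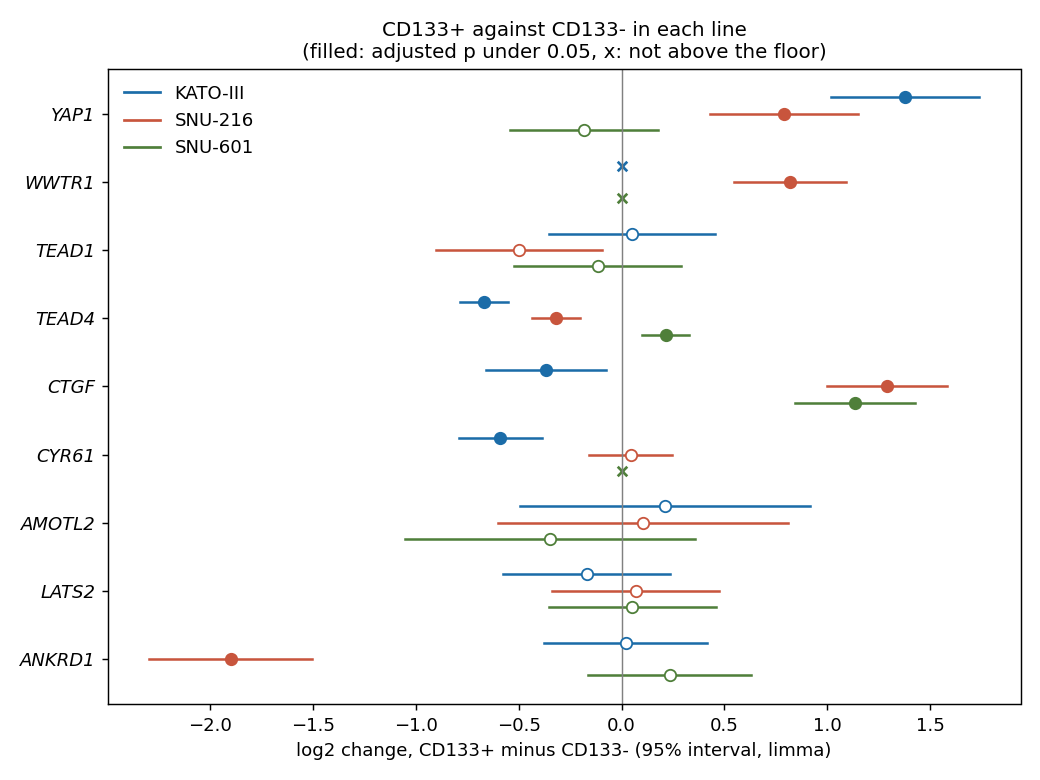
Log2 change, CD133+ minus CD133-, of each gene in each line, with its 95% interval from limma; filled points passed an adjusted p of 0.05, open points did not, and crosses mark genes below the floor on all 4 arrays of a line. CTGF lies at 1.29 and 1.13 in SNU-216 and SNU-601 and at -0.37 in KATO-III, TEAD4 at -0.67 in KATO-III and 0.21 in SNU-601, and ANKRD1 at -1.90 in SNU-216.

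Of the 8 genes above the floor in KATO-III, 1 rose, 3 fell and 4 did not pass the test, where 18.7% of all tested genes were called higher in its CD133+ cells and 20.6% lower. Of 9 in SNU-216, 3 rose, 2 fell and 4 did not pass, where the shares of all tested genes were 14.6% higher and 14.0% lower. Of 7 in SNU-601, 2 rose, none fell and 5 did not pass, where the shares were 8.59% and 7.78%. Members below the floor on all arrays of a line were left out of its count. The shares are over all 20147 tested genes, those below the floor in the line included. The median change of the members was -0.07, 0.07 and 0.05 in KATO-III, SNU-216 and SNU-601, beside a median of 0 over all tested genes in each line. No gene of the 9 changed in the same direction in all 3 lines.

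The study sought differences common to the lines. Over all lines, in a limma model that removed the level of each line, none of the 9 was called, where 4.73% of all tested genes were. YAP1 came nearest, at 0.66 (SE 0.21, adjusted p = 0.0943), followed by CTGF at 0.69 (SE 0.24, adjusted p = 0.111). Both had an unadjusted p under 0.05 in this model, as had 4941 of the 20147 tested genes, so this does not set them apart. This model takes the 12 arrays as independent. With population as a random block, at an estimated correlation of 0.64 between its arrays, the adjusted p was 0.36 for YAP1 and 0.345 for CTGF, and with 1 mean per population it was 0.796 for both. YAP1 was higher in CD133+ cells on average in 2 of the 3 lines, and without the first CD133- array of SNU-601, which at 782 was the highest of that line, its value was 0.82 with an adjusted p of 0.0447. By the signal-to-noise ratio, in which the mean of 6 CD133+ arrays less that of 6 CD133- arrays is divided by the sum of both SDs, none of the 9 passed 1 or -1, where 0.960% of all genes did. The ratio ran from -0.550 for TEAD4 to 0.798 for YAP1.

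For 6 of the 9 genes the fraction change depended on the line, where 44.4% of all tested genes showed such a dependence. By limma's test of the interaction of line and fraction, these were YAP1 (adjusted p = 0.00146), WWTR1 (adjusted p = 0.00515), TEAD4 (adjusted p = 7.46e-05), CTGF (adjusted p = 0.000214), CYR61 (adjusted p = 0.00498) and ANKRD1 (adjusted p = 0.000287). For TEAD4 and CTGF, changes of opposite direction passed the test in different lines. For CTGF this rests on the KATO-III call at the edge of the threshold (adjusted p = 0.0496). For TEAD4 it rests on the SNU-601 call, which was lost on the arrays of that line alone (adjusted p = 0.127). For WWTR1, CYR61 and ANKRD1 the test rests in part on arrays set to the floor, where a change could not be seen. TEAD1 (adjusted p = 0.223), AMOTL2 (adjusted p = 0.546) and LATS2 (adjusted p = 0.682) did not pass it. Each of these 3 passed without 1 array: TEAD1 without the second CD133+ array of SNU-216 (adjusted p = 0.0387), AMOTL2 without the first CD133- array of SNU-601 (adjusted p = 0.0490) and LATS2 without the second CD133+ array of KATO-III (adjusted p = 0.0394).

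For CTGF, CYR61 and WWTR1 the lines differed by more than the fractions of any line. With the fractions of a line weighed equally, 8 of the 9 genes differed between KATO-III and SNU-216, 7 of the 8 measurable between KATO-III and SNU-601, and 6 of 9 between SNU-216 and SNU-601, where 62.0%, 58.6% and 56.5% of all tested genes did. CYR61 was 65.8-fold higher in SNU-216 than in KATO-III and at least 456-fold higher than in SNU-601, and in KATO-III it was at least 6.93-fold higher than in SNU-601. CTGF was 21.3-fold higher in SNU-216 than in KATO-III and 3.85-fold higher than in SNU-601. SNU-601 thus had CTGF well above KATO-III, by 5.53-fold, with CYR61 not above the floor. WWTR1 was at least 7.09-fold higher in SNU-216 than in either other line.

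TEAD1 was 2.57-fold higher in SNU-216 than in KATO-III. Against SNU-601, where 1 of its 4 arrays lay above the floor, the folds are set by the floor: 5.25-fold for SNU-216 and 2.04-fold for KATO-III, a log2 difference of 1.03 that ran from 0.44 with an offset of 100 to 1.52 with a floor of 16 and was called under each. TEAD4 was highest in KATO-III, by 1.15-fold over SNU-216 and 1.54-fold over SNU-601. LATS2 was 1.88-fold lower in KATO-III than in SNU-216 and 1.64-fold lower than in SNU-601, and the latter lines did not differ beyond their spread. YAP1 was 1.26-fold and 1.25-fold higher in KATO-III than in SNU-216 and SNU-601 (adjusted p = 0.0285 and 0.0321), and these calls were lost with 5 and 6 of the 12 arrays left out 1 at a time. They rest on the CD133+ cells: in CD133- cells the mean intensity was 498 in KATO-III, 488 in SNU-216 and 688 in SNU-601. With both fractions weighed equally, ANKRD1 was lowest in KATO-III, 1.92-fold below SNU-216 and 2.95-fold below SNU-601 on floored values. These calls were lost with a floor of 100 (adjusted p = 0.0793 and 0.359). Among CD133+ cells KATO-III was not lower than SNU-216, whose 2 CD133+ arrays, at 23.0 and 7.69, lay below the floor. For AMOTL2 no pair of lines passed the test, with differences of -0.02, 0.20 and 0.21.

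Ordered by their mean log2 intensity, the 6 populations separated best for CTGF and least for AMOTL2. For CTGF all 5 neighbours in the order differed: SNU-216 CD133+ was highest, followed by SNU-216 CD133-, SNU-601 CD133+, SNU-601 CD133-, KATO-III CD133- and KATO-III CD133+. The last step, between the fractions of KATO-III, is the call at the edge of the threshold (adjusted p = 0.0496). For TEAD4 the order ran KATO-III CD133-, SNU-216 CD133-, KATO-III CD133+, SNU-216 CD133+, SNU-601 CD133+ and SNU-601 CD133-, and only KATO-III CD133+ and SNU-216 CD133+ did not differ (0.03, adjusted p = 0.661). For YAP1, KATO-III CD133+ stood above SNU-216 CD133+ by 0.62 (adjusted p = 0.00777), and the neighbours among the other 5 populations did not differ beyond their spread. Where TEAD1 is concerned, both fractions of SNU-216 stood above both of KATO-III, and these above both of SNU-601, with no difference between the fractions of a line that passed the test. CYR61 had the same steps for SNU-216 over KATO-III over SNU-601, with KATO-III CD133- above KATO-III CD133+. For LATS2 only SNU-601 CD133- and KATO-III CD133- differed as neighbours (0.60, adjusted p = 0.0197), and for AMOTL2 none did. ANKRD1 had 1 step, from SNU-601 CD133- down to KATO-III CD133+ (1.43), and WWTR1 had SNU-216 CD133+ above SNU-216 CD133-, and the latter above all other populations.

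Of 40 neighbour pairs over the 9 genes, 19 differed. Neighbours were set by each gene's own order and are the closest populations, so the shares of all tested genes that differ between fixed pairs describe the populations and are no chance value for that count. Of all tested genes, 57.5% differed between KATO-III CD133+ and SNU-216 CD133+, 60.0% between KATO-III CD133+ and SNU-216 CD133-, and 52.4% between KATO-III CD133- and SNU-216 CD133-. Between KATO-III CD133+ and the SNU-601 populations the shares were 55.2% for CD133+ and 56.8% for CD133-, and between KATO-III CD133- and the same populations they were 46.9% and 47.8%. Between SNU-216 CD133+ and SNU-601 the shares were 50.6% for CD133+ and 51.3% for CD133-, and between SNU-216 CD133- and SNU-601 they were 51.5% and 52.6%.

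The other genes of the pathway were read from lists by role. Their counts stand beside the shares of all tested genes called higher and lower in CD133+ cells, 18.7% and 20.6% in KATO-III, 14.6% and 14.0% in SNU-216, and 8.59% and 7.78% in SNU-601. These shares include genes below the floor in a line, which the counts of measurable list genes leave out. Among 7 other TEADs and nuclear cofactors, 4 fell and none rose of the 5 above the floor in KATO-III, with a median change of -0.70. In SNU-216 2 of 7 rose and none fell, and in SNU-601 1 of 5 rose and none fell, with medians of -0.05 and 0.21. RUNX1, a transcription factor that can partner YAP, fell by 1.25 on the log2 scale in KATO-III (adjusted p = 4.35e-05), and VGLL4, which competes with YAP for TEADs, fell by 0.91 there. VGLL3, a TEAD cofactor above the floor in SNU-216 alone, rose by 0.87 in its CD133+ cells. TEAD2, named after its values were seen, showed a line pattern unlike that of TEAD1: its intensities were 4819 to 6526 in KATO-III and 8634 to 11427 in SNU-601, but 12.4 to 34.4 in SNU-216. In that line TEAD1 was highest, and TEAD2 lay below the floor on 3 of the 4 arrays. TEAD3 lay between 95.7 and 203 on all arrays.

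Of 15 tested Hippo kinases and adaptors, LATS1 being above the floor on no array, 13, 14 and 13 were measurable in KATO-III, SNU-216 and SNU-601. In KATO-III 2 rose and 4 fell (median 0.00), in SNU-216 3 rose and 2 fell (median 0.15), and in SNU-601 1 rose and 2 fell (median -0.02), counts near the shares of all tested genes. MOBKL1B, an older symbol for the LATS activator MOB1A, rose by 1.81 in CD133+ cells of KATO-III (adjusted p = 1.24e-05), where its mean intensity was 1951 against 554 in CD133- cells. TAOK3, a kinase upstream of the Hippo kinases, fell by 0.88 on the log2 scale in KATO-III, and WWC1, the scaffold KIBRA, fell by 0.78. Between lines, 8 of the 15 were called higher in SNU-216 than in both others, where 19.7% of all tested genes were. FRMD6, an adaptor of the pathway named after its values were seen, had intensities of 5158 to 5282 in SNU-216 and lay below the floor in the other lines. It is among these 8 and passed the filter through SNU-216 alone.

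Of 13 tested junction and polarity proteins that bind YAP or act on the pathway, 1 rose and 3 fell in KATO-III, 4 rose and 1 fell in SNU-216, and none rose and 4 fell in SNU-601, with medians of -0.11, 0.16 and -0.35. Of all tested genes 7.78% were lower in SNU-601 and 14.6% higher in SNU-216. TJP1, the tight junction protein ZO-1, rose by 0.87 in CD133+ cells of SNU-216 and fell by 0.60 on the log2 scale in those of SNU-601. CRB3, a polarity protein, fell by 0.52 in SNU-216. DCHS1, a protocadherin close to the floor there, rose by 0.86, a call lost under a floor of 16, an offset, no filter and with any single SNU-216 array left out.

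**Figure D4:**
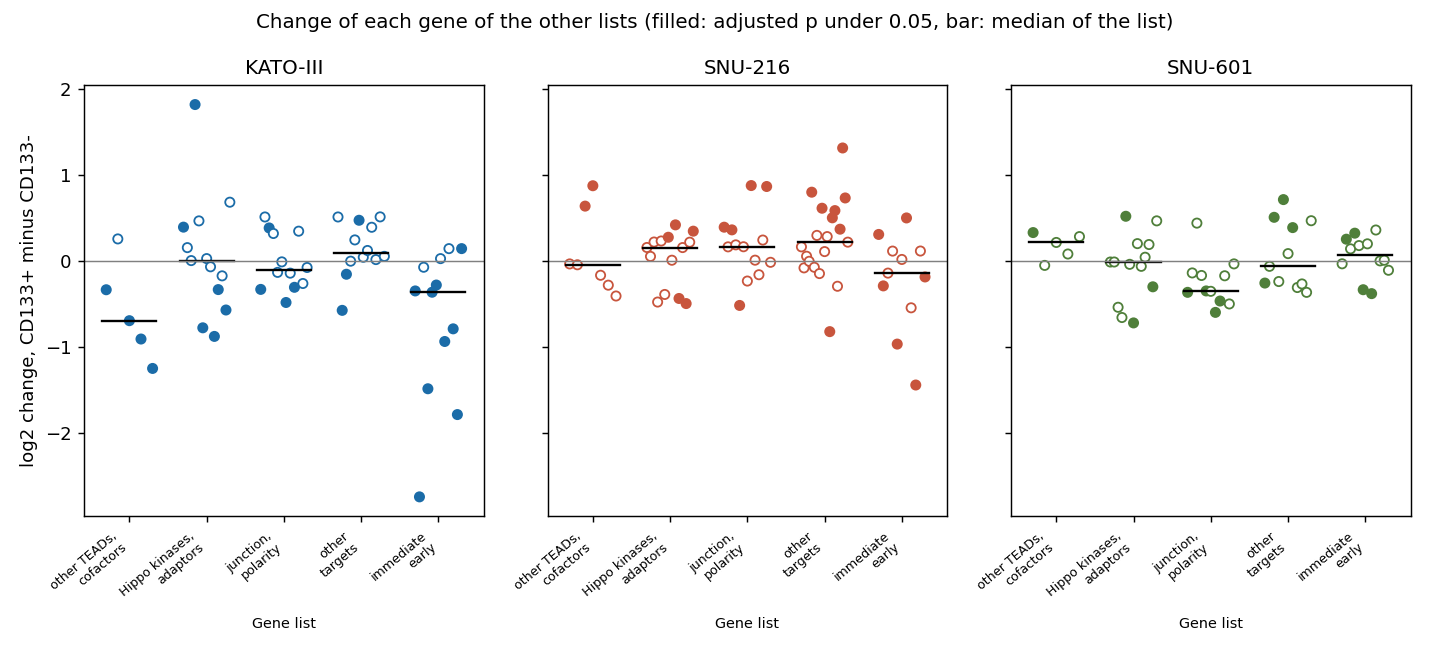
Log2 change, CD133+ minus CD133-, of each gene above the floor in 5 other lists, by line; filled points passed an adjusted p of 0.05 and bars are list medians. The other TEADs and cofactors have a median of -0.70 in KATO-III and the immediate early genes a median of -0.36, while the other target genes have medians of 0.08, 0.22 and -0.07 in KATO-III, SNU-216 and SNU-601.

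Of 19 tested other YAP/TAZ target genes (AREG was above the floor on no array), 1 rose and 2 fell of 12 measurable in KATO-III, 7 rose and 1 fell of 19 in SNU-216, and 3 rose and 1 fell of 11 in SNU-601. Of all tested genes 14.6% were called higher in SNU-216 and 8.59% in SNU-601. The median changes of the list were 0.08, 0.22 and -0.07. RBMS3, an RNA-binding protein, rose by 1.31 in CD133+ cells of SNU-216, from a mean intensity of 77.3 to 190.5 (adjusted p = 0.000127). F3, the tissue factor of coagulation, rose by 0.80 in the same cells, from 2897 to 5039, and NT5E, the ecto-nucleotidase CD73, fell by 0.82 on the log2 scale, from 1282 to 724. The NT5E call was lost with any single SNU-216 array left out. Over all lines CRIM1, a regulator of growth factor processing, rose by 0.49 (adjusted p = 0.0243) and FER1L3, an older symbol of the membrane protein myoferlin, fell by 0.31 on the log2 scale (adjusted p = 0.0409). These calls take the 12 arrays as independent, and both were lost with population as a random block (adjusted p = 0.247) and with 1 mean per population (adjusted p = 0.796). Within lines, CRIM1 passed in KATO-III (0.47) and SNU-601 (0.71) and had 0.29 in SNU-216 (adjusted p = 0.0679), and FER1L3 passed in KATO-III (-0.58) and SNU-601 (-0.26) and had -0.08 in SNU-216 (adjusted p = 0.323). No gene of the other pathway lists passed the test in the same direction in each of the 3 lines taken alone.

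Between lines, 17 of the 19 were called higher in SNU-216 than in both KATO-III and SNU-601, where 19.7% of all tested genes were, and CRIM1 and DOCK5 were not. For 17 of the 19 all 4 SNU-216 arrays lay above all 8 others, where 13.8% of all tested genes did so. On the SNU-216 arrays alone 5 of the 19, IGFBP3, CCDC80, TGFB2, RBMS3 and THBS1, lay above the floor, where 1.84% of all tested genes did. These 5 passed the filter through SNU-216 alone. FOXF2, above the floor on 5 arrays of which 1 was from KATO-III and the others from SNU-216, also needed SNU-216 to pass it. Among genes above the floor on all 12 arrays 8 of the 19 remained, and 6 of these 8 were called higher in SNU-216 than in both others, where 24.2% of 11674 genes were. Named after their values were seen, THBS1, the matrix protein thrombospondin, was at least 489-fold higher in SNU-216 than in either other line, IGFBP3, which binds insulin-like growth factors, at least 388-fold and TGFB2, a growth factor, at least 107-fold. The median difference of the 19 was -3.23 for KATO-III minus SNU-216 and 2.22 for SNU-216 minus SNU-601, against -0.03 and 0.01 over all tested genes, and for KATO-III minus SNU-601 it was -0.22. Of the 9 members 4, WWTR1, TEAD1, CTGF and CYR61, were called higher in SNU-216 than in both others, and ANKRD1, LATS2, AMOTL2, YAP1 and TEAD4 were not. Of these 4, WWTR1 passed the filter through SNU-216 alone. In the other lists the same call held for 4 of 7 other TEADs and cofactors, 4 of 13 junction and polarity proteins and 2 of 12 immediate early genes. Among these, VGLL3, RUNX2 and FAT4 passed the filter through SNU-216 alone.

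**Figure D5:**
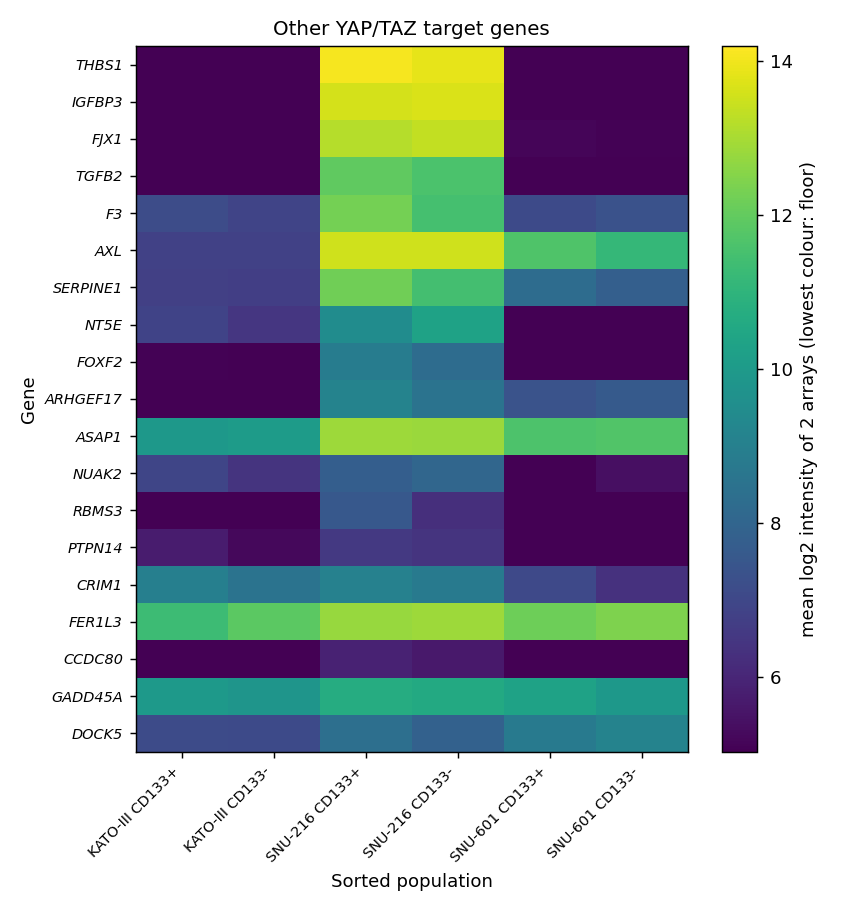
Mean log2 intensity of 2 arrays for each of the 19 other target genes (rows) in the 6 sorted populations (columns); the darkest colour is the floor. Colours compare populations within a row, and 17 of the 19 rows are highest in both SNU-216 populations, with CRIM1 and DOCK5 as the exceptions.

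CTGF and CYR61 are also induced within minutes of stimulation, as immediate early genes are, and in KATO-III most of those genes were lower in CD133+ cells. Of 12 tested immediate early genes, 1 rose and 8 fell in CD133+ cells of KATO-III (median -0.36), 2 rose and 4 fell of 11 in SNU-216 (median -0.14), and 2 rose and 2 fell of 12 in SNU-601 (median 0.07), where 20.6%, 14.0% and 7.78% of all tested genes were called lower. FOSB fell by 2.75 on the log2 scale in KATO-III, from a mean intensity of 5071 to 757 (adjusted p = 9.95e-09), DUSP1 fell by 1.79 and JUN fell by 1.49. Their summed intensity was 25847 to 26444 in CD133+ cells of KATO-III against 45208 to 45469 in CD133- cells, the line and direction in which CTGF and CYR61 fell. In SNU-216 it was 24055 to 24505 against 29136 to 29814, where CTGF rose, and in SNU-601 it was 46510 to 46743 against 46916 to 48017. Such a sum adds genes read by different probes, and single genes can carry it. In SNU-216 most of the difference was IER3, with a mean intensity of 2600 in CD133+ cells against 7066 in CD133- cells. FOS, JUN, EGR1, ATF3 and DUSP1 had higher means in CD133+ cells there. The part of the immediate early genes in the CTGF and CYR61 differences was not tested.

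Of 12 mesenchymal and fibroblast markers 6 were tested. Of these, 2 rose and 1 fell in KATO-III, 2 rose and 1 fell in SNU-216, and none passed in SNU-601. These counts are too small to set apart from the shares of all tested genes. Single genes carry much of the summed levels. The summed intensity of the list was 1521 to 1546 in CD133+ cells of SNU-216 against 1235 to 1351 in CD133- cells, and 923 to 968 against 1518 to 1553 in KATO-III. In SNU-601 it was 706 to 743 against 597 to 696. ACTA2, smooth muscle actin, had intensities of 598 and 580 in CD133+ cells of SNU-216 against 38.3 and 25.2, of which the latter lies below the floor, and rose by at least 4.06, TWIST1 fell by 1.39 on the log2 scale there, and LUM fell by 3.31 in KATO-III, all named after their values were seen. Of the fibroblast genes, COL3A1, DCN and PDGFRB lay above the floor on no array, whereas COL1A1 had 139 to 196 in SNU-601 and LUM had 743 and 783 in CD133- cells of KATO-III. VIM, above the floor on all arrays, rose by 0.43 in KATO-III, and the part of these markers in the results was not tested.

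For the 5 members above the floor on all 12 arrays, the genes with the nearest pattern over the 6 populations were found among 11674 genes, by the root mean square difference of population means centred on their own mean. For YAP1 these were SMNDC1 (0.10), ALCAM (0.11) and HNRNPH3 (0.13), and for TEAD4 they were SLC27A3 (0.06), FLJ46309 (0.08) and HSD17B7 (0.08). For CTGF they were TPM2 (0.51), ERP27 (0.57) and C16ORF48 (0.60), distances that are larger as CTGF's own spread about its mean (1.87) is, against 0.49 for YAP1 and 0.16 for AMOTL2. For LATS2 they were PRDX6, UBTD2 and ACTR1B, between 0.04 and 0.07, and for AMOTL2, whose populations did not differ, IL5RA, C1ORF172 and LOC651169, between 0.04 and 0.06. These are likenesses over 6 points and describe these arrays.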

How the data were processed

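The authors deposited quantile-normalized intensity values with background subtracted, 1 row per gene symbol, from Illumina HT-12 v3 BeadChips, and the submitters' processing notes name BeadStudio. The rule that joined several probes into 1 row is not given in the sources used here. Of 34688 rows, 93 were empty. No column of other samples was found (0 unused). Arrays were grouped by their labels.

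Values under 32.7, the absolute value of the lowest percentile (1%), were raised to it, and log2 values were kept where 2 or more arrays exceeded it (20147 genes). limma 3.58.1 in R 4.3.3, with a mean-variance trend, fitted a mean for each of the 6 populations, or cell line as a block for the comparison over all lines, with Benjamini-Hochberg adjustment at 0.05. The code was tested on simulated data. Motifs, orders and figures were made in Python 3.11.15.

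The 9 genes, the gene lists and the tests were chosen with earlier results of these data known. The text names the 9 genes, PROM1, from each other list the 3 largest called changes and any gene called alike in all lines, and for members above the floor on all arrays the 3 genes of nearest pattern. Others are marked where named. Alternatives covered the floor (16, 100 or an offset of 100), scaling, filter, trend, replicate block, arrays of 1 line alone and leaving out each array. Precision is limited by the small number of arrays.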

Additional observations from a re-analysis of the deposited data

Results flagged for a closer look

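For 6 of the 9 genes the change between CD133+ and CD133- cells differed between the 3 lines by limma's interaction test over 20147 genes: adjusted p = 0.00146 for YAP1, 0.00515 for WWTR1, 7.46e-05 for TEAD4, 0.000214 for CTGF, 0.00498 for CYR61 and 0.000287 for ANKRD1. The changes behind these values were, in KATO-III, SNU-216 and SNU-601, 1.38, 0.79 and -0.18 for YAP1, -0.67, -0.32 and 0.21 for TEAD4 and -0.37, 1.29 and 1.13 for CTGF. CYR61 had changes of -0.59 in KATO-III and 0.04 in SNU-216 and was below the floor in SNU-601, WWTR1 had 0.82 in SNU-216 and was below the floor in the other lines, and ANKRD1 had -1.90 in SNU-216 and 0.23 in SNU-601, with 1 of 4 KATO-III arrays above the floor. The test for ANKRD1 no longer passed with a floor of 100 (adjusted p = 0.0508).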

How the results depend on the processing

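Fitted on the arrays of a line alone, the 9 genes gave 2 calls in KATO-III, 3 in SNU-216 and 0 in SNU-601, against 4, 5 and 2 with all arrays. Among genes above the floor on all 12 arrays, which include 5 of the 9, the counts were 3 in SNU-216, 3 for the interaction, 4, 4 and 2 for the line pairs KATO-III with SNU-216, KATO-III with SNU-601 and SNU-216 with SNU-601, 10 differing neighbours in the order of populations (fewer genes being tested) and 6 of 8 other targets higher in SNU-216 than in both lines, a count added after the data were seen that was 16 to 18 elsewhere. With an offset of 100 SNU-601 kept a single call (1). Leaving out 1 array at a time gave 3 to 4 calls in KATO-III, 5 in SNU-216 (TEAD1 in place of YAP1 without the second CD133+ array), 1 to 2 in SNU-601, 0 to 1 over all lines, 6 to 7 for the interaction, 7 to 8, 6 to 7 and 6 to 7 for the line pairs in the order above, 17 to 19 neighbours and 17 to 18 other targets.

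One called difference changed sign: ANKRD1, SNU-216 minus SNU-601, was -0.62 (adjusted p = 0.00172) and 0.0697 with a floor of 100. The other sign changes were of differences that did not pass the test. YAP1, SNU-216 minus SNU-601, was 0.0022 with an offset, 0.0421 with centred arrays and 0.0313 with quantile normalization repeated. AMOTL2 over all lines was 0.0157 with centred arrays and 0.00971 with repeated quantile normalization, and LATS2 was 0.0108 and 0.0021. With a floor of 100, AMOTL2 was -0.0653 for KATO-III minus SNU-601 and -0.0408 for SNU-216 minus SNU-601. With single arrays left out, YAP1 ran from -0.38 to 0.0142 in SNU-601 and -0.10 to 0.0941 for SNU-216 minus SNU-601, and TEAD1 from -0.0400 to 0.14 in KATO-III. AMOTL2 ran from -0.12 to 0.33 in SNU-216, -0.87 to 0.17 in SNU-601, -0.10 to 0.16 over all lines, and -0.13 to 0.10, -0.0617 to 0.46 and -0.0448 to 0.47 for the line pairs. LATS2 ran from -0.48 to 0.14 in KATO-III, -0.0714 to 0.18 in SNU-601 and -0.0750 to 0.0817 over all lines.

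Single calls lost elsewhere included YAP1 between KATO-III and the other lines with no filter (adjusted p = 0.094 and 0.104), TEAD4 in SNU-601 with an offset (0.0645), CTGF in KATO-III (adjusted p 0.0522 to 0.245 under 6 settings other than left-out arrays) and, on the arrays of the line alone, YAP1 in SNU-216 (0.124), WWTR1 in SNU-216 (0.0642), CTGF in SNU-601 (0.0521), CYR61 in KATO-III (0.0826) and TEAD4 in SNU-601 (0.127). Without SNU-601 CD133- replicate 2, AMOTL2 was higher in KATO-III and in SNU-216 than in SNU-601 (adjusted p = 0.0365 and 0.0318). Over all lines PROM1 had an adjusted p of 0.00123 with population as a random block and 0.796 with 1 mean per population. The replicate block changed no call of the 9 genes and ended that of FER1L3 over all lines (adjusted p = 0.066). Deviations of arrays with the same number correlated at -0.0116 to 0.0276. No pairing by number was thus seen, which cannot exclude that arrays of the same number were handled together. A floor of 100 gave no value where all arrays lay at it. The cause was not tested. Signal over background limits TEAD1 and ANKRD1 in particular.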
